A study of Mus musculus with 16 samples.

Results

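The effect of losing PPARα in hepatocytes was followed in regenerating mouse liver, by comparing 4 arrays of Ppara△Hep livers with 4 arrays of Ppara fl/fl livers, all taken 12 h after partial hepatectomy (PHx). These 8 arrays are part of a set of 16, in which the other 8 came from livers of both genotypes taken 12 h after a sham operation. All 30142 genes that a probe set names by 1 symbol were compared, 19046 of them protein-coding. PHx is the surgical removal of part of the liver, after which the remnant regrows, and a sham operation leaves the liver whole. The labels call the Ppara fl/fl mice wild type, meaning that the floxed gene was intact, and describe Ppara△Hep mice as carrying a disruption of PPARα in hepatocytes only. Both PHx groups thus share the operation and the time and differ in genotype. The labels do not state what drove the deletion, nor the sex or age of the mice. They give marked fat accumulation in the regrowing liver as the reason for choosing 12 h. Each title carries a number of its own, whose meaning the labels do not state, so that p-values here measure how far arrays of a group spread, some of which may be technical. In the PHx groups these title numbers form runs that hold both genotypes. Ppara fl/fl array 1 and Ppara△Hep arrays 1 and 2 are numbered in a row. So are Ppara fl/fl arrays 3 and 4 and Ppara△Hep arrays 3 and 4, while Ppara fl/fl array 2 stands apart. The array numbers from 1 to 4 used here only follow sample order and pair nothing.

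PPARα is a nuclear receptor that binds fatty acids and related lipids, pairs with the retinoid X receptor on DNA and switches on genes of fat handling. In liver it is best known for the response to fasting, when fatty acids reach the hepatocyte and are oxidised in mitochondria and peroxisomes or turned into ketone bodies. Its known targets cover fat import and activation, the carnitine shuttle into mitochondria, β-oxidation, microsomal ω-hydroxylation by enzymes of the CYP4A family, and proteins of the lipid droplet. Levels below are log2 values after RMA, and every difference is Ppara△Hep minus Ppara fl/fl on that scale. Differences carry the standard error of a limma model, and a gene passed at a Benjamini-Hochberg adjusted p below 0.05 over all genes.

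Ppara itself was read first. After PHx it stood at 6.26, 5.02, 5.28 and 4.70 on Ppara△Hep arrays 1 to 4 and at 6.97, 6.08, 5.68 and 7.24 on Ppara fl/fl arrays 1 to 4. The groups overlapped through Ppara△Hep array 1, and the difference of -1.17 ± 0.33 (SE, n = 4) did not pass (limma adjusted p = 0.326). On the sham arrays it lay between 6.05 and 6.43 in Ppara△Hep and between 6.45 and 7.02 in Ppara fl/fl livers. The probe set may reach exons outside the deleted part, so the level of Ppara does not check the labels.

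Technical readings were compared between the PHx groups first. Medians of 6 sets of probe sets (background, negative and positive controls, ERCC spike-ins, chromosome Y and all probe sets) differed by 0.0032 to 0.15 between the PHx groups, with a smallest two-sided exact permutation p of 0.1143 (4 against 4 arrays can reach 0.0286). The median SD of a gene over 4 arrays was 0.108 in PHx Ppara fl/fl and 0.109 in PHx Ppara△Hep livers. The operations differed in 5 of these 6 medians, with no overlap between the 8 PHx and the 8 sham arrays. The median of 558 chromosome Y probe sets was 4.99 to 5.49 on the PHx arrays and 1.70 to 1.87 on the sham arrays. Background probe sets stood at 0.973 to 1.09 after PHx and 1.19 to 1.29 after sham, positive controls at 5.30 to 5.66 and 5.82 to 6.06, and ERCC spike-ins at 1.51 to 1.69 and 1.71 to 1.88. All probe sets stood at 2.14 to 2.22 and 2.02 to 2.08. The labels give no sex, and a difference in sex between the PHx and the sham mice, array handling and the operation itself cannot be told apart where PHx and sham are set side by side.

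After PHx 43 genes were lower in Ppara△Hep than in Ppara fl/fl livers (0.143% of 30142 tested) and 0 were higher (0%). They included 12 genes of the carnitine, mitochondrial and peroxisomal lists and 2 genes of the lipid droplet, and among the smallest p were those of the transcription factor gene Creb3l3, the dehydrogenase gene Acadvl and the droplet coat gene Plin5. Their differences ran from -2.40 to -0.33 with a median of -0.87, against a median of 0.01 over all genes, and 18 of the 43 fell by more than 1 on the log2 scale. All but 1 were protein-coding, the exception being the pseudogene Got2-ps1, and in all but 1, Elmod3, every Ppara△Hep array lay below every Ppara fl/fl array (396 genes, 1.31% of those tested, did so). The 43 were chosen on these same arrays, which favours both this separation and the size of their median, so neither adds to the calls. On the higher side 1241 genes had an unadjusted limma p below 0.05 (4.12%), and on the lower side 1012 (3.36%). With array quality weights, 1 of the alternatives tried, 1 gene passed on the higher side. Pathway lists covering 588 of the tested genes held 18 of the 43.

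The calls leaned on the sham arrays for the estimate of spread. Fitted on the 8 PHx arrays alone, limma called 0 genes lower and 0 higher at a smallest adjusted p of 0.167 (686 lower and 993 higher at an unadjusted p below 0.05), although all 43 kept an unadjusted p below 0.05. The 43 genes varied more after PHx than after sham, with a median pooled SD of 0.27 against 0.11, and the PHx spread was the larger in 41 of them (63.7% of all genes). A model with 1 spread for both operations therefore gives these genes a standard error that is narrow for the PHx arrays.

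**Figure D1:**
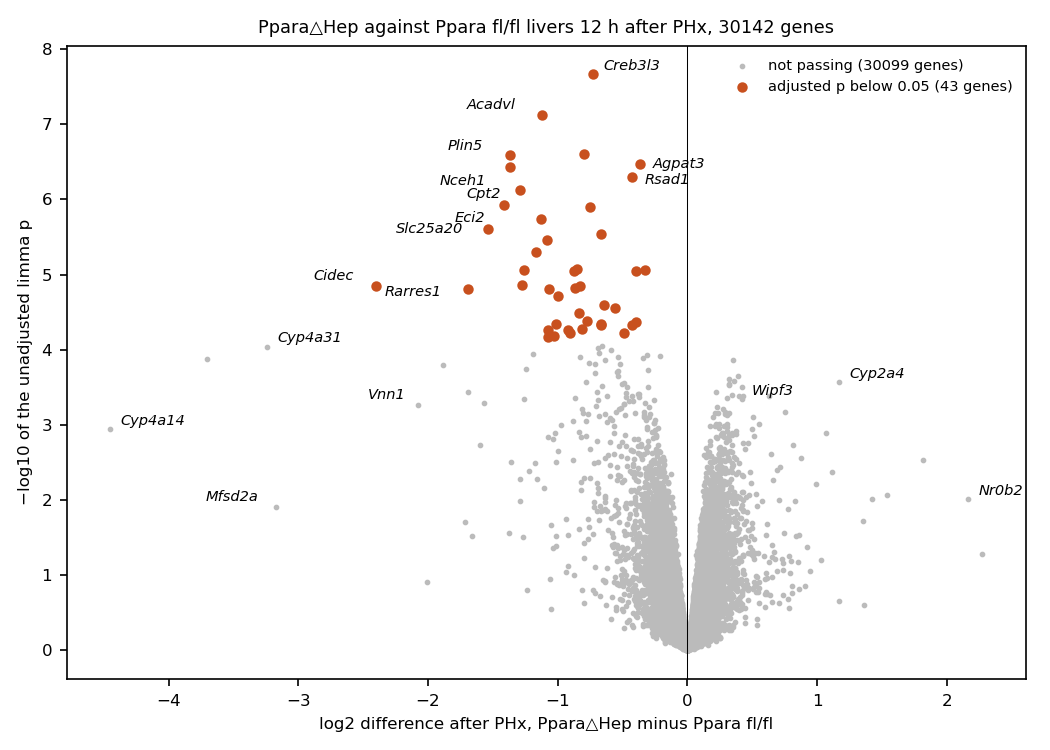
Log2 difference after PHx (x axis, Ppara△Hep minus Ppara fl/fl) against the unadjusted limma p on a -log10 scale (y axis), 1 point per gene over 30142 genes and 4 arrays per genotype. All 43 orange points, which passed at adjusted p below 0.05, lie left of 0, while the 3 largest differences (Cyp4a14, Cyp4a32 and Cyp4a31) are grey, as is every point right of 0.

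Leaving out arrays moved the count. With 1 PHx array left out the number of genes that fell ranged from 14, without Ppara△Hep array 2, to 107, without Ppara fl/fl array 3. It was 17 without Ppara fl/fl array 1, 21 without Ppara fl/fl array 4 and 28 at the lowest with 1 sham array left out (sham Ppara△Hep array 1, or sham Ppara fl/fl array 1 or 3). In all 16 such fits 14 genes passed: Creb3l3, Acadvl, Agpat3, Ctif, Nceh1, Plin5, Rsad1, Cpt2, Acsf2, Eci2, Ech1, Slc25a20, Lgals4 and Etfdh. In every fit the genes of the 43 that it tested had differences below 0 (38 were tested among genes with a mean of at least 4, and 42 among protein-coding genes). Most of these fits could not change that sign. Leaving out a sham array keeps each PHx difference as it was, and a gene with no overlap keeps its sign without any 1 PHx array.

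**Figure D2:**
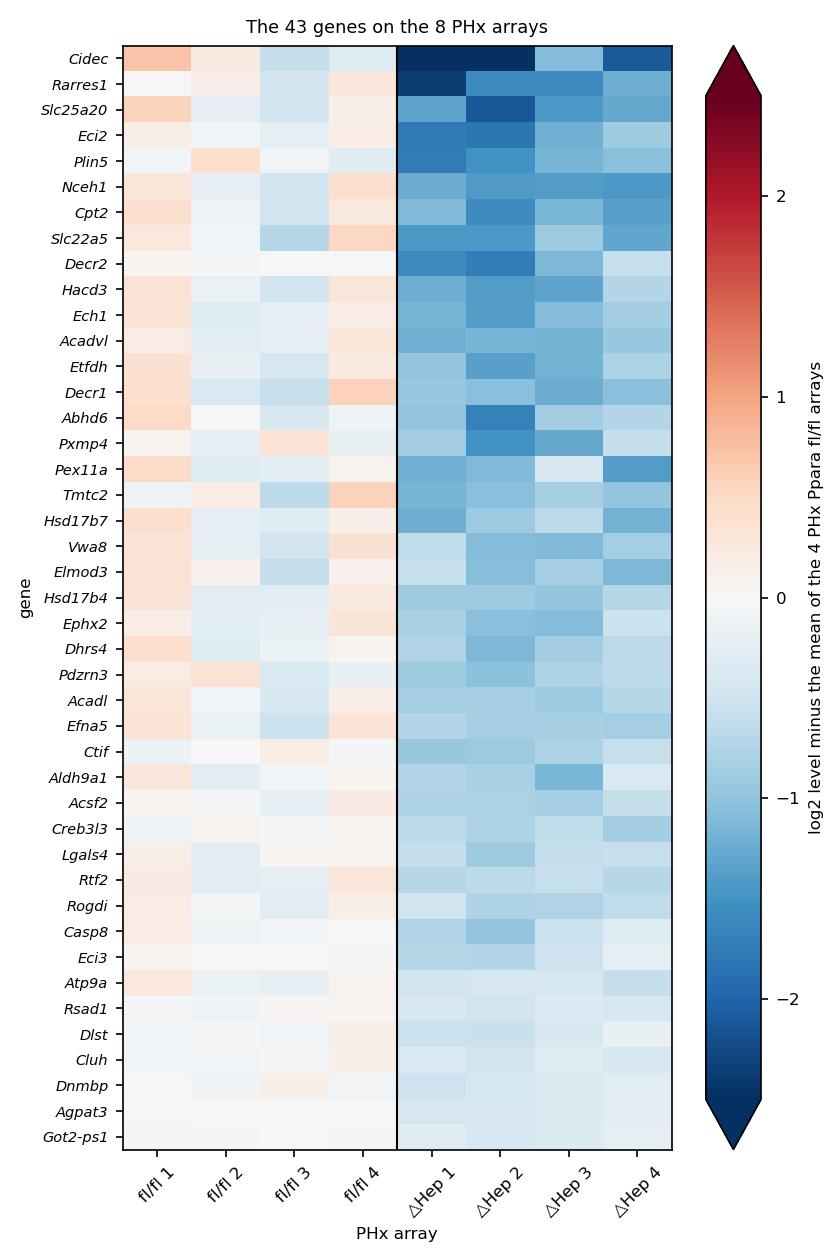
Level of each of the 43 genes on the 8 PHx arrays, as the log2 distance from the mean of the 4 Ppara fl/fl arrays (colour scale, open at both ends), with genes ordered by their mean difference. The 4 Ppara△Hep columns are blue throughout, deepest for Cidec, while Ppara fl/fl arrays 1 and 4 are the warmer and arrays 2 and 3 the cooler columns of their group.

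Some arrays stood at the edge of their group for many of the 43 genes. Ppara fl/fl array 1 was the highest of its group for 22 and array 4 for 14, and array 3 was the lowest for 21 and array 2 for 16. In the Ppara△Hep group array 2 was the lowest for 20 and array 4 the highest for 26. Over all genes Ppara fl/fl array 1 was instead the lowest of its group most often, for 8991 of 30142, and array 3 the highest most often, for 10677.

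Creb3l3 had the smallest p of all. It encodes CREB-H, a transcription factor of the hepatocyte's endoplasmic reticulum that controls genes of triglyceride clearance and fasting and is a known partner and target of PPARα. After PHx its level was 6.66, 6.54, 6.66 and 6.43 on the 4 Ppara△Hep arrays and 7.20, 7.37, 7.25 and 7.39 on the 4 Ppara fl/fl arrays. The groups were well apart, with arrays of a group close together, and Creb3l3 fell by 0.73 ± 0.07 (SE; limma adjusted p = 6.51e-04), a linear fold of 1.66 of Ppara fl/fl over Ppara△Hep. In sham livers the difference was -0.24 ± 0.07 with no overlap (adjusted p = 0.403), and the 2 differences were apart by -0.49 ± 0.10 (unadjusted p = 1.4e-04, adjusted p = 0.286).

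PPARα and the retinoid X receptor bind direct repeats of a hexamer spaced by a base, so the promoters of the 43 genes were searched for AGGTCANAGGTCA on both strands with at most 2 mismatches among 12 letters. RefSeq windows (GRCm38.p6, 250 bases before to 50 after a start) were at hand for 38 of the 43, and 3 held a match, none of them exact, against 3.86% of 32851 windows and 4.18% of tested genes with a window. The matches, in capitals, lay in the windows of Creb3l3 (chr10:81092592-81092841, minus strand, in 1 of its 2 windows, starting at position -209 from the start), Aldh9a1 (chr1:167349741-167349990, plus strand, position -144) and Slc25a20 (chr9:108662134-108662162, plus strand, position 7). They are shown because these 3 genes fell and carry the letters of the receptor's element near the start.
Creb3l3: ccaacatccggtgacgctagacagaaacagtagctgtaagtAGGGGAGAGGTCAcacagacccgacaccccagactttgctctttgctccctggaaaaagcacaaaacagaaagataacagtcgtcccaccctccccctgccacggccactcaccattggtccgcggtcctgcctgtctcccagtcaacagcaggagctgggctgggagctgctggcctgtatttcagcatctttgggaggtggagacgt
Aldh9a1: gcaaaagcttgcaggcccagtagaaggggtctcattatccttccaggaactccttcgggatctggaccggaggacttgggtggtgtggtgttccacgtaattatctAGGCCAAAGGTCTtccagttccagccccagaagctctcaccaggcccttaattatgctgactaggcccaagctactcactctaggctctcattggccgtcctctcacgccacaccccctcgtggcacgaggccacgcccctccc
Slc25a20: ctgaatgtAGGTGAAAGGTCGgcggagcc
A match of letters is a description of these windows and not a measured binding site, and windows this short leave out enhancers and introns.

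In whole tissue, fewer cells of a type and less RNA per cell cannot be told apart, which holds for each fall below. The carnitine shuttle carries long-chain fatty acids across the mitochondrial membranes. Of its 9 measured genes 3 fell, 0 rose, and all 9 were below 0 (43.7% of all genes were), with a median of -0.73. Slc25a20, the carnitine-acylcarnitine carrier of the inner membrane, stood at 6.48, 5.68, 6.36 and 6.51 on the Ppara△Hep arrays and at 8.36, 7.57, 7.32 and 7.94 on the Ppara fl/fl arrays. Every Ppara△Hep array was below every Ppara fl/fl array, array 2 lowest, and Slc25a20 fell by 1.54 ± 0.21 (limma adjusted p = 0.00623), a fold of 2.9. Cpt2, which frees the acyl group inside the mitochondrion, stood at 6.59, 6.13, 6.57 and 6.35 against 8.09, 7.58, 7.19 and 7.94. Again the groups were apart, and Cpt2 fell by 1.29 ± 0.16 (limma adjusted p = 0.0028), a fold of 2.44.

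Slc22a5 encodes the plasma membrane importer of carnitine. After PHx it stood at 4.75, 4.77, 5.28 and 4.89 in Ppara△Hep and 6.45, 6.13, 5.49 and 6.72 in Ppara fl/fl livers, with Ppara fl/fl array 3 only just above Ppara△Hep array 3. It fell by 1.27 ± 0.20 (limma adjusted p = 0.0183). On the sham arrays the ranges were 4.63 to 4.78 and 4.45 to 4.91, so the genotypes overlapped there, and of all 16 arrays the 4 PHx Ppara fl/fl arrays were the highest. The difference between the operations was -1.27 ± 0.28 (unadjusted p = 4.5e-04, adjusted p = 0.301). Without Ppara△Hep array 1 or 2 or Ppara fl/fl array 1 or 4 the PHx call was lost (adjusted p up to 0.0955). Cpt1a, the rate-limiting entry enzyme of the shuttle, had a difference of -0.73 ± 0.30 with overlapping arrays and did not pass (limma adjusted p = 0.613). Crat, which moves carnitine on and off short acyl groups, likewise stood at -0.82 ± 0.21 (adjusted p = 0.233).

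Inside the mitochondrion, β-oxidation shortens the acyl chain by repeated cycles of dehydrogenation, hydration and cleavage. Of 15 measured genes 4 fell, 0 rose and all 15 were below 0, with a median of -0.69 after PHx and -0.38 after sham. The mean level of the list was 6.70, 6.59, 6.40 and 6.71 on the Ppara△Hep arrays and 7.48, 6.97, 6.93 and 7.51 on the Ppara fl/fl arrays. Ppara fl/fl arrays 1 and 4 thus stood well above arrays 2 and 3, and all 4 stood above the highest Ppara△Hep array. Acadvl, the very-long-chain acyl-CoA dehydrogenase, was at 6.49, 6.54, 6.53 and 6.75 in Ppara△Hep and 7.88, 7.44, 7.48 and 8.0 in Ppara fl/fl livers. It fell by 1.12 ± 0.12 (limma adjusted p = 0.00114), a fold of 2.18.

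The other 3 that fell act at neighbouring steps. Etfdh, which hands the electrons of these dehydrogenases to ubiquinone, fell by 1.08 ± 0.15 (limma adjusted p = 0.00752), from 7.32 ± 0.37 to 6.24 ± 0.25 (SD, n = 4). Acadl, the long-chain dehydrogenase, fell by 0.83 ± 0.13 (adjusted p = 0.0183), with 7.25, 7.25, 7.18 and 7.37 in Ppara△Hep against 8.38, 8.01, 7.70 and 8.26 in Ppara fl/fl livers. Its call was lost without Ppara△Hep array 1, 2 or 3 or Ppara fl/fl array 1 or 4 (up to 0.086). Decr1, the reductase needed for unsaturated chains, fell by 1.07 ± 0.20 (adjusted p = 0.0476) and kept its call in 2 of the 16 left-out fits, without Ppara fl/fl array 2 or 3. Hadha, the α subunit of the trifunctional protein, had a difference of -0.69 ± 0.15 with no overlap and did not pass (adjusted p = 0.134). Acadm, the medium-chain dehydrogenase, was at -0.43 ± 0.14 (adjusted p = 0.444).

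**Figure D3:**
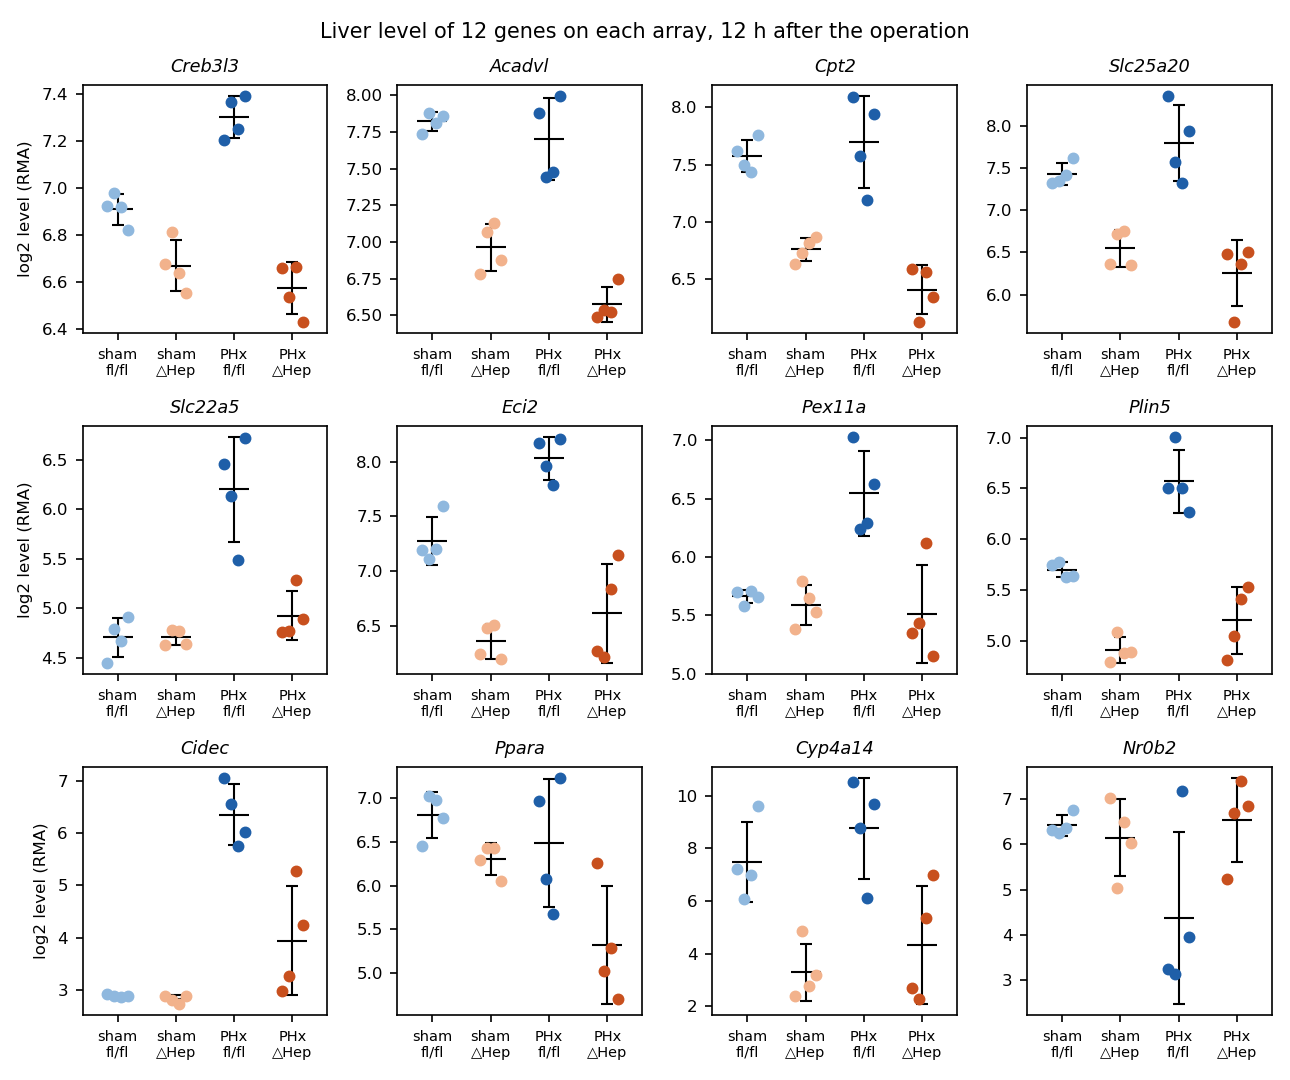
Log2 level (y axis, a separate range per panel) of 12 genes on each of the 16 arrays, with the mean and SD of each group of 4 as horizontal bar and whiskers. The 4 PHx Ppara△Hep points lie below the 4 PHx Ppara fl/fl points for Creb3l3, Acadvl, Cpt2, Slc25a20, Slc22a5, Eci2, Pex11a, Plin5 and Cidec, and overlap them for Ppara, Cyp4a14 and Nr0b2.

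Peroxisomes oxidise very-long-chain and branched fatty acids. Of 26 measured genes 5 fell, 0 rose and 25 were below 0, with a median of -0.55 after PHx and -0.19 after sham. Eci2, an isomerase that repositions double bonds, stood at 6.27, 6.22, 6.84 and 7.14 in Ppara△Hep and 8.17, 7.96, 7.79 and 8.21 in Ppara fl/fl livers. The groups did not overlap, with Ppara△Hep arrays 3 and 4 the nearer ones, and Eci2 fell by 1.41 ± 0.18 (limma adjusted p = 0.00381), a fold of 2.66. Decr2, the peroxisomal dienoyl-CoA reductase, was at 6.53, 6.40, 7.0 and 7.55 against 8.18, 8.09, 8.12 and 8.12. Its Ppara fl/fl arrays were nearly equal while Ppara△Hep array 4 stood high in its group, and it fell by 1.26 ± 0.19 (adjusted p = 0.0137).

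Ech1, another enzyme of unsaturated chains, fell by 1.13 ± 0.15 (limma adjusted p = 0.00506), and Hsd17b4, the D-bifunctional protein, by 0.87 ± 0.13 (adjusted p = 0.0137). Hsd17b4 and Decr2 lost their calls without Ppara△Hep array 2 or Ppara fl/fl array 1 or 4 (adjusted p up to 0.0642 and 0.0725). Pex11a, which drives the elongation and division of peroxisomes, stood at 5.35, 5.44, 6.12 and 5.15 against 7.03, 6.24, 6.29 and 6.63. Ppara△Hep array 3 came close to Ppara fl/fl array 2, without overlap, and Pex11a fell by 1.03 ± 0.19 (adjusted p = 0.0476). It lost its call without any 1 of the sham arrays and without Ppara△Hep array 1, 2 or 4 or Ppara fl/fl array 1 or 4 (up to 0.158). Its sham difference was -0.07 ± 0.19. Ehhadh, the L-bifunctional enzyme and a much used target of PPARα, had no overlap at a difference of -1.26 ± 0.28 and did not pass (adjusted p = 0.141). Acaa1b, a peroxisomal thiolase, was at -0.88 ± 0.21 (adjusted p = 0.192).

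The CYP4A ω-hydroxylases had the 3 largest differences of all and did not pass, with arrays of a group far apart. Of 12 measured genes of ω-oxidation 0 passed and 5 were lower at an unadjusted limma p below 0.05 (3.36% of all genes). In this list 10 were below 0 (43.7% of all genes), with a median of -0.28. Cyp4a14 stood at 2.69, 2.27, 5.36 and 6.97 in Ppara△Hep and 10.53, 8.78, 6.11 and 9.69 in Ppara fl/fl livers. Ppara△Hep array 4 was above Ppara fl/fl array 3, and the difference was -4.45 ± 1.11 (adjusted p = 0.214). Cyp4a31 had no overlap at -3.24 ± 0.61 (adjusted p = 0.0607), and Cyp4a32 none at -3.70 ± 0.72 (adjusted p = 0.0725). Both passed without Ppara fl/fl array 3 (0.0104 and 0.0209) or without Ppara△Hep array 4 (0.00919 each), as did Cyp4a14 without Ppara fl/fl array 3 (0.0482). These genes are close copies of each other, so probes may share signal between them. Aldh3a2, the fatty aldehyde dehydrogenase that completes ω-oxidation, was at -1.04 ± 0.27 (adjusted p = 0.245).

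Lipid droplets store the triglyceride that accumulates in the regrowing liver. Of 23 measured droplet genes 2 fell, 0 rose and 16 were below 0, with a median of -0.29 after PHx and -0.06 after sham. Cidec, whose protein fuses droplets into larger ones, stood at 2.99, 3.26, 5.27 and 4.25 in Ppara△Hep and 7.05, 6.56, 5.75 and 6.02 in Ppara fl/fl livers. The nearest arrays of the groups were number 3 of each, with no overlap, and Cidec fell by 2.40 ± 0.38 (limma adjusted p = 0.0183), a fold of 5.29. Without Ppara△Hep array 2 or Ppara fl/fl array 1 or 2 the call was lost (up to 0.0951). On all 8 sham arrays Cidec lay between 2.74 and 2.92, close to PHx Ppara△Hep arrays 1 and 2. In limma the PHx and sham differences of Cidec were apart by -2.35 ± 0.54, which did not pass (limma adjusted p = 0.315, limma unadjusted p = 5.6e-04). Negative control medians ran from 1.81 to 2.01 on the sham arrays. With sham levels of Cidec this near to them, a fall had little room to show after sham.

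Plin5, which ties droplets to mitochondria in oxidative tissue, stood at 4.82, 5.05, 5.41 and 5.53 in Ppara△Hep and 6.50, 7.01, 6.50 and 6.27 in Ppara fl/fl livers. Each Ppara△Hep array was clearly below each Ppara fl/fl array, and Plin5 fell by 1.37 ± 0.15 (limma adjusted p = 0.00184), a fold of 2.58. Plin2, the main coat protein of hepatocyte droplets, was at 9.16, 9.02, 9.79 and 9.45 against 10.08, 9.87, 10.10 and 9.86. It had no overlap, at -0.62 ± 0.14, and did not pass (adjusted p = 0.136). Plin4 was at -1.10 ± 0.35 (adjusted p = 0.428) and Fitm1, which helps droplets to bud, at -0.87 ± 0.19 (adjusted p = 0.138).

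Mfsd2a, a transporter of lysophospholipids, showed how far arrays could part. It stood at 3.23, 3.74, 8.39 and 8.90 on the Ppara△Hep arrays and at 9.43, 9.73, 9.90 and 7.89 on the Ppara fl/fl arrays. Ppara△Hep arrays 1 and 2 were thus very low and arrays 3 and 4 within the range of the other genotype. This split follows the runs of title numbers within Ppara△Hep only. Ppara fl/fl array 1, of the same run as Ppara△Hep arrays 1 and 2, stood at 9.43. Ppara fl/fl arrays 3 and 4, which share a run, were the highest and the lowest of their group. The difference of -3.17 ± 1.12 did not pass (limma adjusted p = 0.499).

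Among 29 measured genes of other classical PPARα targets 3 fell, 0 rose and 23 were below 0, with a median of -0.42 after PHx and -0.05 after sham. Besides Creb3l3 these were Ephx2, the soluble epoxide hydrolase, and Aldh9a1, which makes a precursor of carnitine. Ephx2 fell by 0.86 ± 0.14 (limma adjusted p = 0.0183) and lost its call without Ppara△Hep array 2 or 3 or Ppara fl/fl array 1 or 4 (up to 0.0976). Aldh9a1 stood at 6.11, 6.03, 5.70 and 6.46 against 7.12, 6.57, 6.77 and 6.92 and fell by 0.77 ± 0.13 (adjusted p = 0.0397). Its call was lost without any 1 of the sham arrays and without Ppara△Hep array 1, 2 or 3 or Ppara fl/fl array 1 or 4 (up to 0.157).

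Several textbook targets did not pass. Vnn1, a pantetheinase, stood at 1.77, 1.79, 2.54 and 2.54 in Ppara△Hep and 5.16, 3.19, 3.20 and 5.40 in Ppara fl/fl livers, without overlap, at -2.08 ± 0.47 (limma adjusted p = 0.155). Its Ppara△Hep levels lay at or near those of the negative control probe sets, whose medians ran from 1.94 to 2.12 on the PHx arrays. Angptl4, an inhibitor of lipoprotein lipase, was at -0.72 ± 0.25 (adjusted p = 0.479), and Fabp1, the fatty acid binding protein of liver, at -0.64 ± 0.18 (0.312). The lipid uptake receptor gene Cd36 was at -0.61 ± 0.25 (0.597). The hormone gene Fgf21 was at -0.46 ± 0.28 (adjusted p = 0.764) at low levels, between 2.24 and 3.92.

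For Acot1, Acot2 and Pdk4 the difference was below 0 after PHx and above 0 after sham, and none of these differences passed. Acot2, a mitochondrial thioesterase, was at -1.36 ± 0.39 after PHx (limma adjusted p = 0.324) and 0.83 ± 0.39 after sham (0.537), and the difference between these of -2.19 ± 0.55 had an unadjusted p of 0.0012 (adjusted p = 0.327). Acot1, its cytosolic relative, was at -0.68 ± 0.26 (0.555) and 1.12 ± 0.26 (0.337), and the difference between these of -1.80 ± 0.36 had an unadjusted p of 1.7e-04 (adjusted p = 0.286). Acot1, Acot2 and Acot3 are near copies, so their probes may share signal. Pdk4, which holds back glucose oxidation, was at -0.42 ± 0.59 (adjusted p = 0.917) after PHx, where the arrays of both genotypes ran from 5.71 to 8.98, and at 1.45 ± 0.59 (0.491) after sham. Of 28 measured synthetase, thioesterase and carrier genes 0 passed in limma, and the median was -0.29. At an unadjusted p below 0.05, 12 of them were lower and 0 higher (3.36% and 4.12% of all genes). Of 5 measured genes of ketone body synthesis and export 0 passed, 1 was lower at that p and 4 were below 0 (43.7% of all genes).

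**Figure D4:**
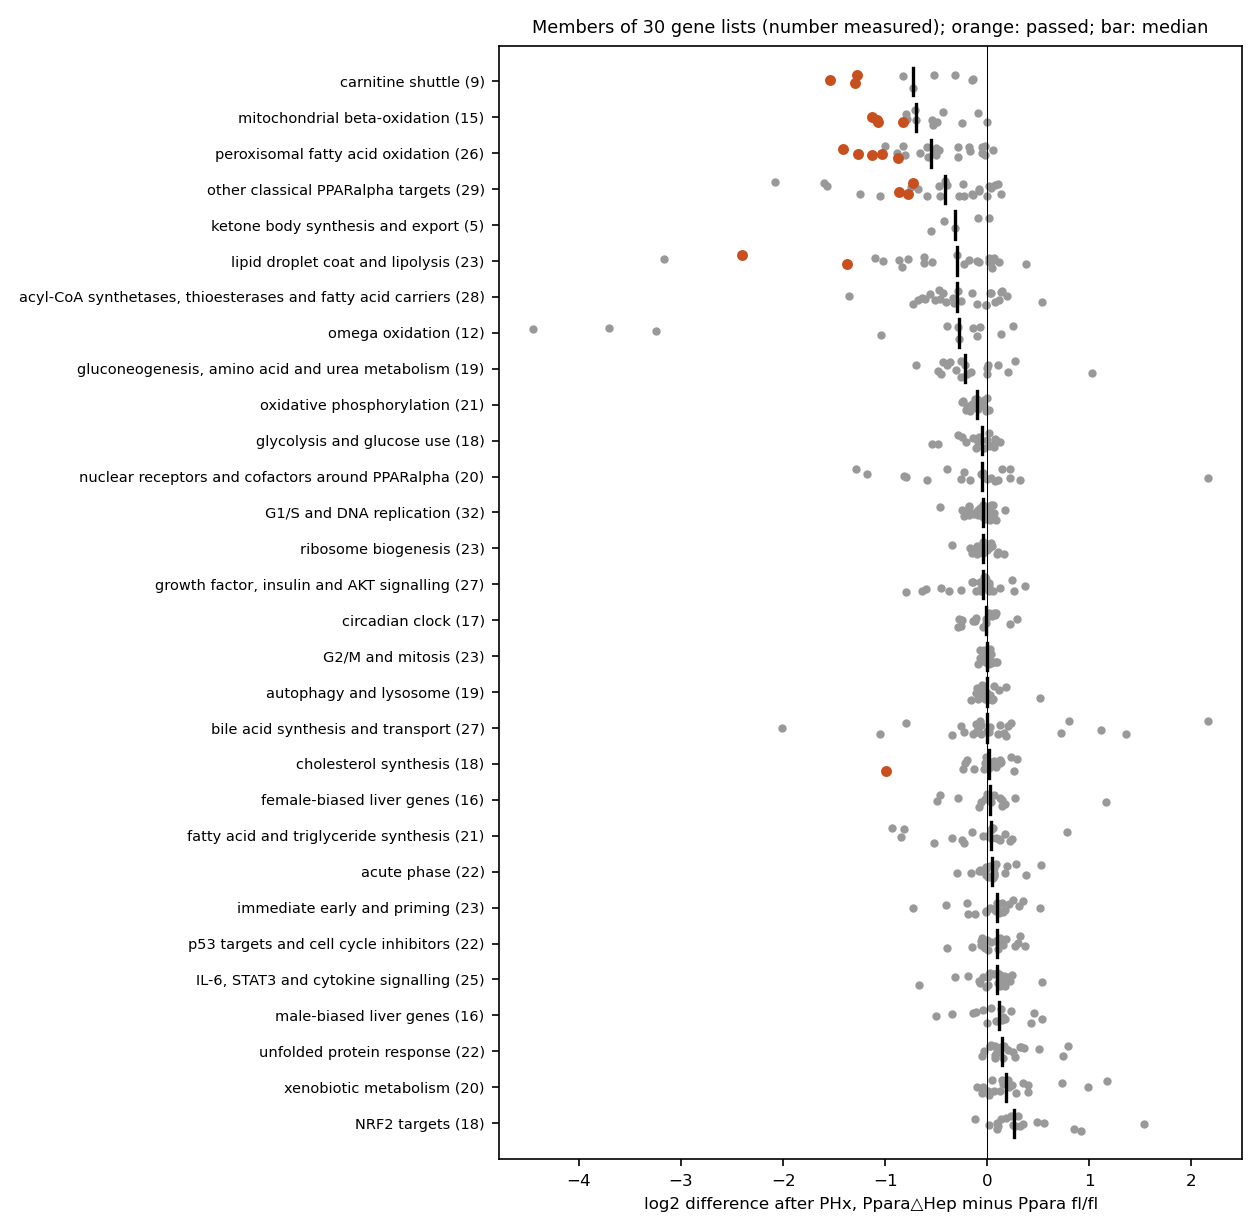
Log2 difference after PHx (x axis) of every measured member of 30 pathway lists (y axis, with the number measured), 1 point per gene, a black bar at the median of the list. Orange points passed. They lie in the carnitine, mitochondrial, peroxisomal, other-target and droplet lists, plus Hsd17b7 in cholesterol synthesis, while the cell cycle and ribosome lists gather around 0.

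Outside the pathway lists stood 25 of the 43 genes. Several act on lipids. Nceh1, a hydrolase of cholesterol esters, stood at 3.90, 3.72, 3.74 and 3.70 in Ppara△Hep and 5.43, 4.90, 4.66 and 5.55 in Ppara fl/fl livers, clear of overlap, and fell by 1.37 ± 0.16 (limma adjusted p = 0.00184). Hacd3, a dehydratase of very-long-chain fatty acid elongation, fell by 1.17 ± 0.17 (adjusted p = 0.0099) and lost its call without Ppara△Hep array 2 (0.0547). Abhd6, a monoacylglycerol lipase, fell by 1.07 ± 0.19 (adjusted p = 0.042) and kept its call in 2 of the 16 left-out fits, without Ppara△Hep array 4 or Ppara fl/fl array 3 (otherwise up to 0.149). Agpat3, an acyltransferase of phospholipid synthesis, was at 6.50, 6.51, 6.59 and 6.64 against 6.91, 6.93, 6.94 and 6.93. With arrays this close a fall of only 0.36 ± 0.04 passed (adjusted p = 0.00184). Acsf2, a medium-chain acyl-CoA synthetase, fell by 0.75 ± 0.10 (adjusted p = 0.00381).

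Others of the 43 have no direct part in fat burning. Rarres1, a retinoid-responsive gene, stood at 3.71, 4.50, 4.50 and 4.86 in Ppara△Hep and 6.09, 6.25, 5.62 and 6.36 in Ppara fl/fl livers and fell by 1.69 ± 0.27 (limma adjusted p = 0.0183), the second largest fall of the 43. Its call was lost without Ppara△Hep array 2 or Ppara fl/fl array 1, 2 or 4 (up to 0.0918). Ctif, a translation initiation factor of newly exported mRNA, fell by 0.80 ± 0.09 (adjusted p = 0.00184) and Rsad1 by 0.43 ± 0.05 (0.00219). Lgals4, the sugar-binding galectin-4, fell by 0.67 ± 0.09 (0.00659), at low levels with a mean below 4 in every group. Hsd17b7, the 1 gene of cholesterol synthesis among 18 measured to fall, stood at 6.26, 6.58, 6.83 and 6.30 against 7.89, 7.24, 7.17 and 7.63. It fell by 0.99 ± 0.16 (adjusted p = 0.0216), with the call lost without Ppara△Hep array 1, 2 or 4 or Ppara fl/fl array 1 or 4 (up to 0.0894). The median of the cholesterol list was 0.02.

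The rest of the 43 were named after their values were seen, to account for each. Pxmp4, a peroxisomal membrane protein, fell by 1.07 ± 0.17 (limma adjusted p = 0.0183), and Dhrs4, a peroxisomal reductase, by 0.85 ± 0.13 (0.0137). Cluh, which binds mRNAs of mitochondrial proteins, fell by 0.39 ± 0.06 (0.0137), Dlst, a subunit of 2-oxoglutarate dehydrogenase, by 0.42 ± 0.07 (0.0397), and Vwa8 by 0.92 ± 0.16 (0.042). The death receptor caspase gene Casp8 fell by 0.65 ± 0.11 (0.0277). With 1 array left out, calls were lost for Cluh without Ppara△Hep array 2 and for Dhrs4 without that array or Ppara fl/fl array 4. Pxmp4 lost its call without Ppara△Hep array 2 or 3 or Ppara fl/fl array 1. Casp8 passed in 10 of 16 left-out fits, Vwa8 in 3 and Dlst in 2. The last ones of the 43, from Eci3 and Got2-ps1 to Dnmbp, Pdzrn3, Tmtc2, Rtf2, Rogdi, Efna5, Atp9a and Elmod3, fell by 0.33 to 1.01. Got2-ps1 passed in 14 of 16 left-out fits, Pdzrn3 in 6, and Eci3, Dnmbp and Rogdi in 4 each. Rtf2 passed in 3, Atp9a and Elmod3 in 2 each, and Tmtc2 and Efna5 in 1 each. Eci3, Pdzrn3, Tmtc2 and Efna5, and Lgals4 named above, had a mean below 4 in every group. Eci3 and Got2-ps1 are near copies of Eci2 and Got2, so their probes may share signal.

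The 8 sham arrays measured the same genotype contrast on arrays whose own differences took no part in choosing the 43 genes. They lent the model part of its spread, and they differed from the PHx arrays in the chromosome Y, background, positive control, ERCC and overall medians given above, so sex, array handling and operation cannot be told apart in what follows. There 40 of the 43 were below 0 (59.3% of all genes were), with differences from -1.18 to 0.10 and a median of -0.36 (-0.02 over all genes). At an unadjusted limma p below 0.05, 27 of the 43 were lower (7.12% of all genes) and 0 higher (2.14%). In 28 of the 43 every Ppara△Hep array lay below every Ppara fl/fl array (4.43% of all genes). The 43 passed after PHx partly by a small spread per gene, which the sham arrays helped to set and the sham p shares. That choice favours both counts, so 7.12% and 4.43% are not fair benchmarks for them. After adjustment over all genes only Acadvl passed, at -0.86 ± 0.12 (adjusted p = 0.0166), of 3 genes that fell (0.00995%) and 1 that rose (0.00332%) after sham. Decr2 had nearly the same difference in both operations, -1.26 ± 0.19 after PHx and -1.18 ± 0.19 after sham.

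All 43 fell further after PHx than their difference after sham, which the choice of genes by their PHx values favours. The difference between the operations had an unadjusted p below 0.05 for 26 of them, against 11.3% of all genes in either direction. The choice of genes favours this count as well, so 11.3% is not a fair benchmark for it. The PHx difference and the spread by which the 43 were chosen also enter the difference between the operations. In limma 0 of 30142 genes passed for that difference (0%; 3400 at an unadjusted p below 0.05), and the smallest adjusted p was 0.286. The count stayed at 0 under the 8 other settings run for it, which left out no array. Among the 43 the genes nearest to 0 after sham were Slc22a5, Rsad1, Atp9a, Cluh, Hsd17b7, Cidec, Dnmbp, Acsf2 and Pex11a, whose sham differences lay between -0.07 and 0.04. Acsf2, for example, stood at 7.03 to 7.44 in sham Ppara△Hep and 7.16 to 7.37 in sham Ppara fl/fl livers.

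**Figure D5:**
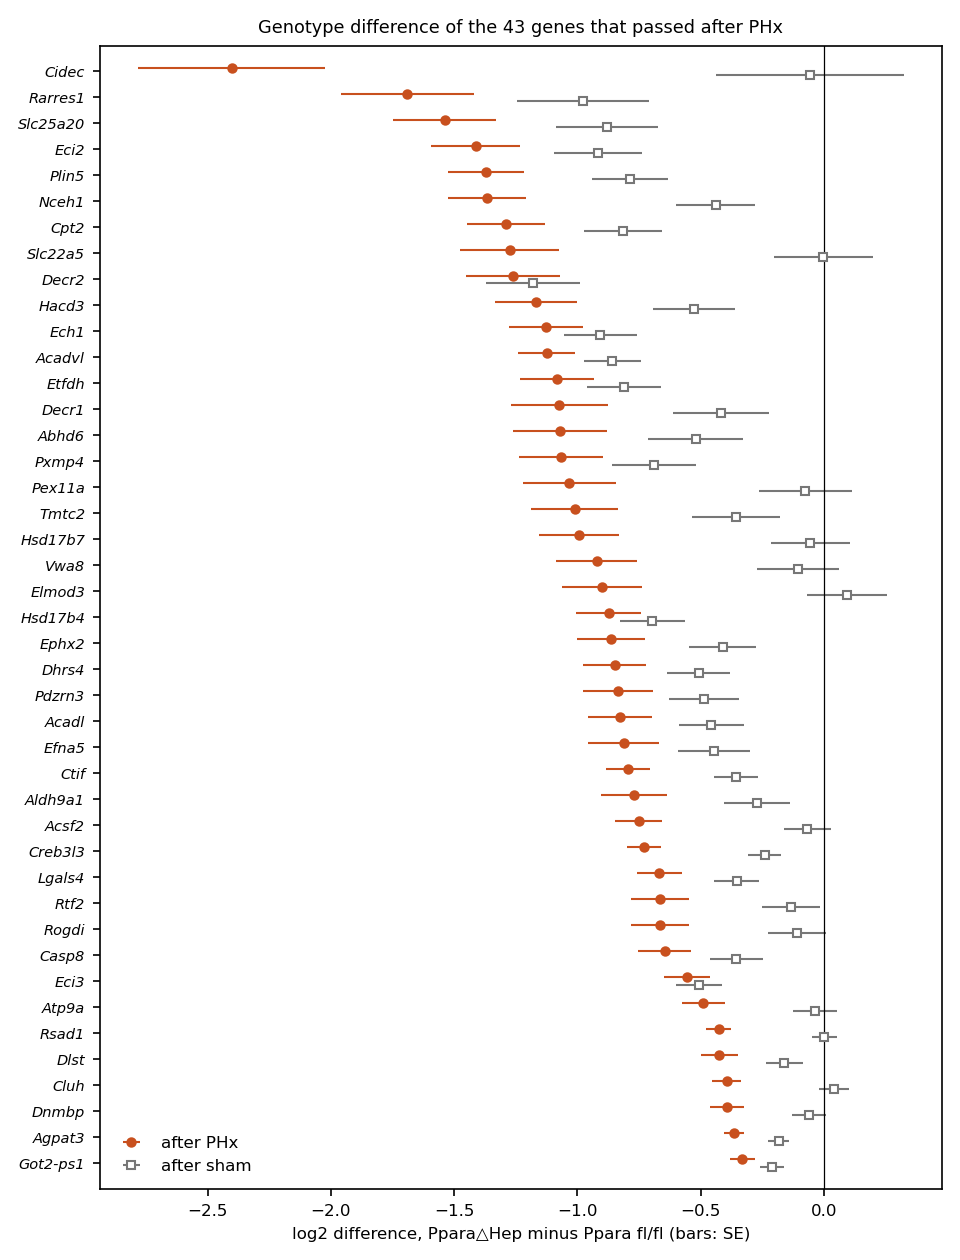
Log2 difference between genotypes (x axis, with SE bars from the model) after PHx (filled circles) and after sham (open squares) for the 43 genes that passed after PHx (y axis, ordered by the PHx difference). Sham squares lie left of 0 for 40 genes, and for Cidec, Slc22a5, Pex11a and Hsd17b7 they sit at 0 while the circles lie near or beyond -1.

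No gene passed as higher in Ppara△Hep livers after PHx (limma, 0 of 30142), and the smallest adjusted p on that side was 0.0734, of an immunoglobulin segment gene. The genes named here are only some of those that the rule for names gave, which filled this side to 10 by smallest p. Cyp2a4, a steroid hydroxylase, stood at 8.47, 8.65, 8.63 and 9.02 in Ppara△Hep and 7.07, 7.58, 8.47 and 6.98 in Ppara fl/fl livers. Ppara fl/fl array 3 reached the lowest Ppara△Hep array, and the difference of 1.17 ± 0.25 did not pass (adjusted p = 0.113). Without that array it passed at 1.49 ± 0.16 (7.08e-04). Cyp3a59 and Cyp3a57, of the CYP3A family, had no overlap at 1.07 ± 0.27 (0.228) and 0.82 ± 0.22 (0.271), and Cyp3a25 was at 0.99 ± 0.31 (0.4). Wipf3, which acts on the actin cytoskeleton, was at 0.42 ± 0.09 (0.141) and Rnase2a, a ribonuclease of eosinophils, at 0.75 ± 0.18 (0.172). CYP3A genes are close copies, so their probes may share signal.

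Lists of drug metabolism and stress defence leaned the same way with 0 members passing. Over all genes 4.12% were higher and 3.36% lower at an unadjusted limma p below 0.05, and 43.7% were below 0. Of 20 measured genes of xenobiotic metabolism 7 were higher and 0 lower at an unadjusted limma p below 0.05, the median was 0.18, and in 3 genes all Ppara△Hep arrays lay above all Ppara fl/fl arrays (2.41% of all genes). Of 18 NRF2 targets, the genes of the antioxidant response, 1 was below 0, 3 were higher at an unadjusted p below 0.05 and the median was 0.27. Osgin1 was at 6.94, 7.17, 7.98 and 6.99 against 5.21, 4.31, 7.67 and 5.75, so that again Ppara fl/fl array 3 stood with the other genotype, and the difference was 1.54 ± 0.51 (limma adjusted p = 0.464). Gstm3, a glutathione transferase, was at 0.92 ± 0.42 (0.65) and Gclc, which starts glutathione synthesis, at 0.85 ± 0.43 (0.697). Of 22 genes of the unfolded protein response 2 were below 0, 2 were higher at an unadjusted p below 0.05 and the median was 0.15. Herpud1 was at 0.75 ± 0.31 (0.608).

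Bile acid genes varied widely between arrays of both genotypes. Of 27 measured genes 0 passed in limma, and the median was 0.00. At an unadjusted p below 0.05, 2 were higher and 0 lower (4.12% and 3.36% of all genes). Cyp7a1, which sets the rate of bile acid synthesis, stood at 6.39, 2.54, 1.79 and 1.91 in Ppara△Hep and 5.43, 5.50, 1.93 and 7.82 in Ppara fl/fl livers. Low levels near the negative controls occurred in both genotypes, and the difference of -2.01 ± 1.23 did not pass (limma adjusted p = 0.764). Cyp8b1, of the same pathway, was at -1.05 ± 0.95 (0.851). Nr0b2, which encodes the repressor SHP, stood at 5.23, 6.71, 7.41 and 6.85 against 3.25, 3.13, 7.19 and 3.96. Ppara fl/fl array 3 stood among the Ppara△Hep arrays, and the difference of 2.17 ± 0.73 did not pass (0.47), though it did at 3.10 ± 0.47 without that array (0.01). Abcb11, the bile salt export pump, was at 1.11 ± 0.33 (0.361).

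Lists of fat synthesis and of energy metabolism beyond oxidation had 0 passing members. Over all genes 3.36% were lower at an unadjusted limma p below 0.05. Of 21 measured genes of fatty acid and triglyceride synthesis 0 passed in limma, 4 were lower at an unadjusted p below 0.05 and the median was 0.04, with Me1, which supplies NADPH, at -0.93 ± 0.35 (limma adjusted p = 0.546) and Gpam, the first acyltransferase of triglyceride synthesis, at -0.84 ± 0.34 (0.596). Of 21 subunits and factors of oxidative phosphorylation 20 were below 0 (43.7% of all genes were) at a median of -0.10, 4 were lower at an unadjusted p below 0.05 and 0 passed. Of 18 measured genes of glycolysis 3 were lower and 0 higher at that p. Of 19 genes of gluconeogenesis, amino acid and urea metabolism 3 were lower and 0 higher. Pparg, a relative of Ppara linked to fat storage, was at 0.23 ± 0.19 (0.834). Ppargc1a, a coactivator of both, was at -1.29 ± 0.44 (0.478), with Ppara fl/fl array 2 at 7.70 and the other 7 PHx arrays between 4.28 and 5.75.

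The medians of the growth and inflammation lists lay close to 0. Of 23 immediate early and priming genes, 32 genes of G1/S, 23 of G2/M, 22 p53 targets, 27 of growth factor, insulin and AKT signalling and 25 of IL-6 and cytokine signalling, 0 passed in limma, with medians of 0.09, -0.04, -0.01, 0.10, -0.04 and 0.10. At an unadjusted p below 0.05 the G1/S list had 4 lower genes, the growth factor list 3 lower and 1 higher, the p53 list 1 higher and the other lists 0. Among all genes 3.36% were lower and 4.12% higher at that p. The G2/M genes averaged 1.80 to 1.86 on the PHx arrays, below the medians of the negative controls, so differences among them were not detectable at these levels. The proliferation marker Mki67 was at -0.05 ± 0.13 (adjusted p = 0.971), Myc at 0.26 ± 0.20 (0.82), and Phlpp2, a phosphatase that acts on AKT, at 0.06 ± 0.08 (0.916). Mki67 changed sign without Ppara fl/fl array 2 and Phlpp2 without Ppara△Hep array 3. Cdkn1a, the cell cycle inhibitor p21, stood at 5.85, 6.33, 8.45 and 9.12 in Ppara△Hep and 7.12, 8.59, 8.94 and 4.48 in Ppara fl/fl livers, and the difference was 0.16 ± 0.88 (0.986). Ppara△Hep arrays 1 and 2 lay below arrays 3 and 4 here as well. Ppara fl/fl arrays 3 and 4, which share a run of title numbers, were the highest and the lowest of their group. The part of the title numbers' order in the levels of Cdkn1a was not tested.

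The marker genes of liver cell types showed 0 passing members in each of 12 lists in limma. At an unadjusted p below 0.05 the endothelial and adipocyte lists had 1 lower gene each, the B cell and cholangiocyte lists 2 higher genes each, the T and NK cell and monocyte lists 1 higher gene each and the other 6 lists 0. Among all genes 3.36% were lower and 4.12% higher at that p. The 12 measured hepatocyte markers had a median of 0.04 and a mean level of 10.16 to 10.31 on the Ppara△Hep arrays and 10.21 to 10.28 on the Ppara fl/fl arrays, so the labelled tissue showed its defining genes at high levels on every array. Of 12 markers of sinusoidal endothelial cells 10 were below 0 at a median of -0.14, with mean levels of 4.90 to 5.05 against 5.0 to 5.19. Kupffer cell and macrophage markers had a median of -0.07 over 13 genes, with 8 below 0, and mean levels of 4.74 to 5.15 against 4.74 to 5.12. Markers of T and NK cells (1.93 to 2.06 against 1.94 to 1.98) lay at the level of the negative controls, and markers of B cells, adipocytes and pancreas averaged at most 2.89 on all 8 arrays. The part of these markers in the falls described above was not tested.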

How the data were processed

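Total RNA of whole livers was extracted with Trizol, labelled with biotin and read on Affymetrix arrays, per the labels' protocols. The authors deposited 1 table of log2 values from RMA, per the submitters' processing notes, ranging from 0.072 to 12.11 (the software version and the genome build: not given in the sources used here). All 16 arrays lie in that table. RMA compresses differences near background.

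Of 72688 probe sets, 30604 carried 1 gene symbol, 2146 several and 39938 none in the annotation table, and only the first kind was used. Updating through RefSeq changed 827 symbols. Where a gene had several probe sets (355 genes) the one with the highest mean was taken, which left 30142 genes. Some genes of the lists had none with 1 symbol and were not analysed here.

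In limma 3.58.1 (R 4.3.3) 1 mean per group was fitted over all 16 arrays (12 residual and 2.84 prior degrees of freedom, eBayes defaults), with contrasts for PHx, for sham and for their difference, and Benjamini-Hochberg adjustment over all genes at 0.05. Single values per array were compared by exact two-sided permutation. The procedure was tested on simulated data with 1 spread per gene in all groups. That test did not cover a wider spread after PHx. No depth applies to arrays, and their number limits the precision. Genes and 42 lists (30 of pathways, 12 of cell type markers) were chosen with earlier results of these data known. Named genes were set names, up to 15 passing protein-coding genes per direction with a mean of at least 4 and no overlap (filled to 10), and up to 4 per list; others of the 43 are named to account for all. Alternatives were other normalizations, filters, weights, moderation, arrays and probe sets.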

Additional observations from a re-analysis of the deposited data

Results flagged for a closer look

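Among the genes named, 208 groups of 4 PHx arrays were examined for 1 array far from the other 3 (Dixon's 95% critical value for 4), and 9 were found; chance gives about 1 in 20. In the Ppara fl/fl group, Acot2 was high on array 1 at 8.13 (others 7.29 to 7.38), Got2-ps1 on array 1 at 8.31 (8.21 to 8.22), Cluh on array 4 at 7.0 (6.76 to 6.79) and Il1b, which encodes the cytokine interleukin-1β, on array 2 at 5.77 (2.86 to 3.06). Stab2, a scavenger receptor of sinusoidal endothelium, was low on Ppara fl/fl array 3 at 5.7 (5.88 to 5.91). In the Ppara△Hep group, array 1 was high for Cyp7a1 at 6.39 (1.79 to 2.54), for Derl3, of endoplasmic reticulum degradation, at 6.84 (4.07 to 4.47) and for Efna5, an ephrin, at 2.38 (2.26 to 2.28). Lgals4 was low on Ppara△Hep array 2 at 2.84 (3.12 to 3.15). Cluh, Efna5, Got2-ps1 and Lgals4 are among the 43 genes that fell.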

How the results depend on the processing

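Under each of 25 alternatives those of the 43 genes that it tested stayed below 0 (38 were tested among genes with a mean of at least 4, 42 among protein-coding genes). Most of these fits could not change that sign. Fits without a sham array, on the 8 PHx arrays alone, or with other moderation or filters keep each PHx difference as it was. A gene with no overlap between the PHx groups also keeps its sign without any 1 PHx array. The count of genes that fell after PHx, 43, ranged from 35 to 52 over other normalizations, moderation, weights, filters and probe sets, and was 0 in the fit of the 8 PHx arrays alone. With 1 array left out it ranged from 14 to 107, and the count that rose ranged from 0 to 20; leaving out sham arrays was added after seeing the data. With array quality weights 1 gene rose after PHx, and after sham 21 fell and 3 rose. After sham 1 gene fell with array medians subtracted, and 0 rose among genes with a mean of at least 4 or among protein-coding genes alone. With 1 array left out, the difference changed sign for 5 genes that did not pass: Pdk4 ranged from -0.92 to 0.14 (above 0 without Ppara fl/fl array 3), Phlpp2 from -0.015 (without Ppara△Hep array 3) to 0.12, Mki67 from -0.097 to 0.044 and Il1b from -0.93 to 0.039 (both above 0 without Ppara fl/fl array 2). Cdkn1a ranged from -0.78 to 0.71, and lay below 0 without Ppara△Hep array 3 (-0.18), Ppara△Hep array 4 (-0.41) or Ppara fl/fl array 4 (-0.78). The cause was not tested. Of the 43, 38 passed under cyclic loess, 33 under quantile normalization, 39 with trend and robust moderation, and 42 each with array medians subtracted and with array weights. Calls were lost for Pex11a, Dlst and Dnmbp (passing in 5 of 8 such settings each), Got2-ps1 (5 of 7), Aldh9a1, Abhd6, Casp8 and Atp9a (6 of 8 each), Elmod3 (7 of 8) and Efna5 (6 of 7). No paired analysis was possible because the labels give no replicate numbers. Genes near the negative controls, such as the G2/M list, carry little signal over background.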

Other observations

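Leaving out PHx Ppara fl/fl array 3 gave the most calls of all fits. Of all 30142 genes 107 were then lower and 20 higher in Ppara△Hep livers. The array was chosen after its effect was seen, so these values describe the remaining 7 PHx arrays. All 43 genes were among the 107, and the following list members passed: 8 of 15 genes of mitochondrial β-oxidation, 10 of 26 of the peroxisomal list, 4 of 9 of the carnitine shuttle, 4 of 12 of ω-oxidation, 4 of 23 of the droplet list and 5 of 29 other classical targets as lower, and 0 of 21 of oxidative phosphorylation. Ehhadh stood at -1.52 (limma adjusted p = 0.0162), Hadha at -0.84 (0.0113), Crat at -1.01 (0.0334), Vnn1 at -2.43 (0.0401) and Ldha, of lactate metabolism, at -0.57 (0.0209). On the higher side Osgin1 stood at 2.18 ± 0.34 (0.0102) and Herpud1 at 1.13 ± 0.21 (0.0291).

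Other single arrays decided single genes. Plin2 passed as lower without Ppara△Hep array 3, at -0.76 (limma adjusted p = 0.0157), as did Acot2 at -1.82 (0.0179). Wipf3 passed as higher without Ppara△Hep array 1, at 0.53 (0.0054).

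In 3 genes, picked after their values were seen, arrays of both genotypes lay far apart. Cth, an enzyme of cysteine synthesis, stood at 8.94, 9.29, 9.82 and 10.32 on Ppara△Hep arrays 1 to 4 and at 6.78, 9.24, 10.02 and 8.22 on Ppara fl/fl arrays 1 to 4. Slc51b, a basolateral bile acid exporter, stood at 2.85, 5.76, 7.30 and 7.70 against 2.10, 5.85, 7.84 and 2.35. Sult1e1, the estrogen sulfotransferase, stood at 3.48, 4.95, 5.54 and 7.41 against 2.56, 5.76, 6.56 and 1.79. For all 3, Ppara△Hep array 1 was the lowest of its group and Ppara fl/fl array 3 the highest of its own, and the genotype difference did not pass (adjusted p = 0.691, 0.83 and 0.818). Ppara fl/fl arrays 1 and 4, lowest here for Cth, Slc51b and Sult1e1, were the highest of their group for 22 and 14 of the 43 genes that fell.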
